A study of Mus musculus with 9 samples.

Results

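The BCL2 family decides whether a cell survives stress or dies by the mitochondrial route, and 10 of its genes are described here in mouse bone marrow-derived macrophages: Bcl2, Bcl2l1, Mcl1, Bcl2a1b, Bax, Bak1, Bcl2l11, Bid, Bbc3 and Pmaip1. They were taken as the rows of the deposited count table whose mouse Ensembl identifier carries one of these symbols, which gave 10 of 22001 rows, and all 10 were among the 11469 genes that passed the filter on low counts. The macrophages, phagocytes grown in culture from marrow precursors, came from C57BL6 mice and were sampled after 6 h in each of 3 groups of 3 RNA-seq libraries. In the first group the cells received Pam3CSK4, a synthetic lipopeptide that activates Toll-like receptor 2, at 100 µg/ml together with 3SL at 100 µl/ml, a volume that gives no amount. The second group received Pam3CSK4 alone at the same concentration, and the third received PBS. For the 3SL libraries, Pamc4 stands in the titles and Pamc4-CSL in the treatment tag, while the descriptions, which were followed, name PAM3CSK4 and 3SL. Whether the libraries of a group stem from separate cultures or mice is not stated, so the p-values describe the spread among these libraries, which may be technical.

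Proteins of this family meet at the outer membrane of the mitochondrion. Bax and Bak1 can assemble into pores there that release cytochrome c and start the caspase cascade, the pro-survival members (Bcl2, Bcl2l1, Mcl1 and the A1 protein of the Bcl2a1 genes) bind and hold them, and the BH3-only members (Bcl2l11, Bid, Bbc3 and Pmaip1) report stress by occupying the pro-survival proteins or by activating the pores. In macrophages A1 is known for its induction by inflammatory signals through NF-kappaB and Mcl1 for a protein that is made and destroyed quickly, while several BH3-only genes answer to p53 or FOXO factors.

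Library totals ran from 7472482 to 43980309 counts and no pair of libraries within a group was alike to within counting error (chi-square per degree of freedom 1.83 to 2.91). The inflammatory genes went against the labels. The summed level of Il1b, Tnf, Nfkbia and Ptgs2, which Toll-like receptor signals induce, was 11100 to 12600 CPM (counts-per-million) in the 3 libraries labelled with 3SL, 68.2 to 74.5 CPM in those labelled Pam3CSK4 and 14400 to 15500 CPM in those labelled untreated. The groups are therefore called 3SL-labelled, Pam3CSK4-labelled and untreated-labelled, and every direction rests on those labels. In the library codes the letter D goes with Pam3CSK4 alone and the letters A, B and C with the other groups, so group and letter cannot be told apart for the Pam3CSK4-labelled libraries. In bulk RNA, fewer cells of a type and less RNA per cell cannot be told apart either. CPM here are counts relative to the library size after TMM scaling, which sets the bulk of the genes level between libraries.

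The first comparison asks what Pam3CSK4 alone changed, as far as the labels hold. Between the Pam3CSK4-labelled and the untreated-labelled libraries every one of the 10 genes passed the test, 5 upward and 5 downward, with Bak1, 1 of the 5 lower, turning to a log2 change of 0.02 without a call when libraries were scaled by size only. Of all tested genes 75.0% were called in this comparison, 39.0% higher and 35.9% lower, so a share of 10 in 10 is set against a background in which most genes were called. The 10 genes had a median log2 change of 0.03, and all tested genes had 0.03. Their groups did not overlap for any of the 10, as for 76.0% of all tested genes. A call with a change of at least 2-fold was found for 3 of the 10 (Bcl2, Bcl2a1b and Bid) and for 24.0% of all tested genes. Bcl2 changed most among the 10, and 8.13% of all tested genes changed by at least as much in either direction.

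**Figure D1:**
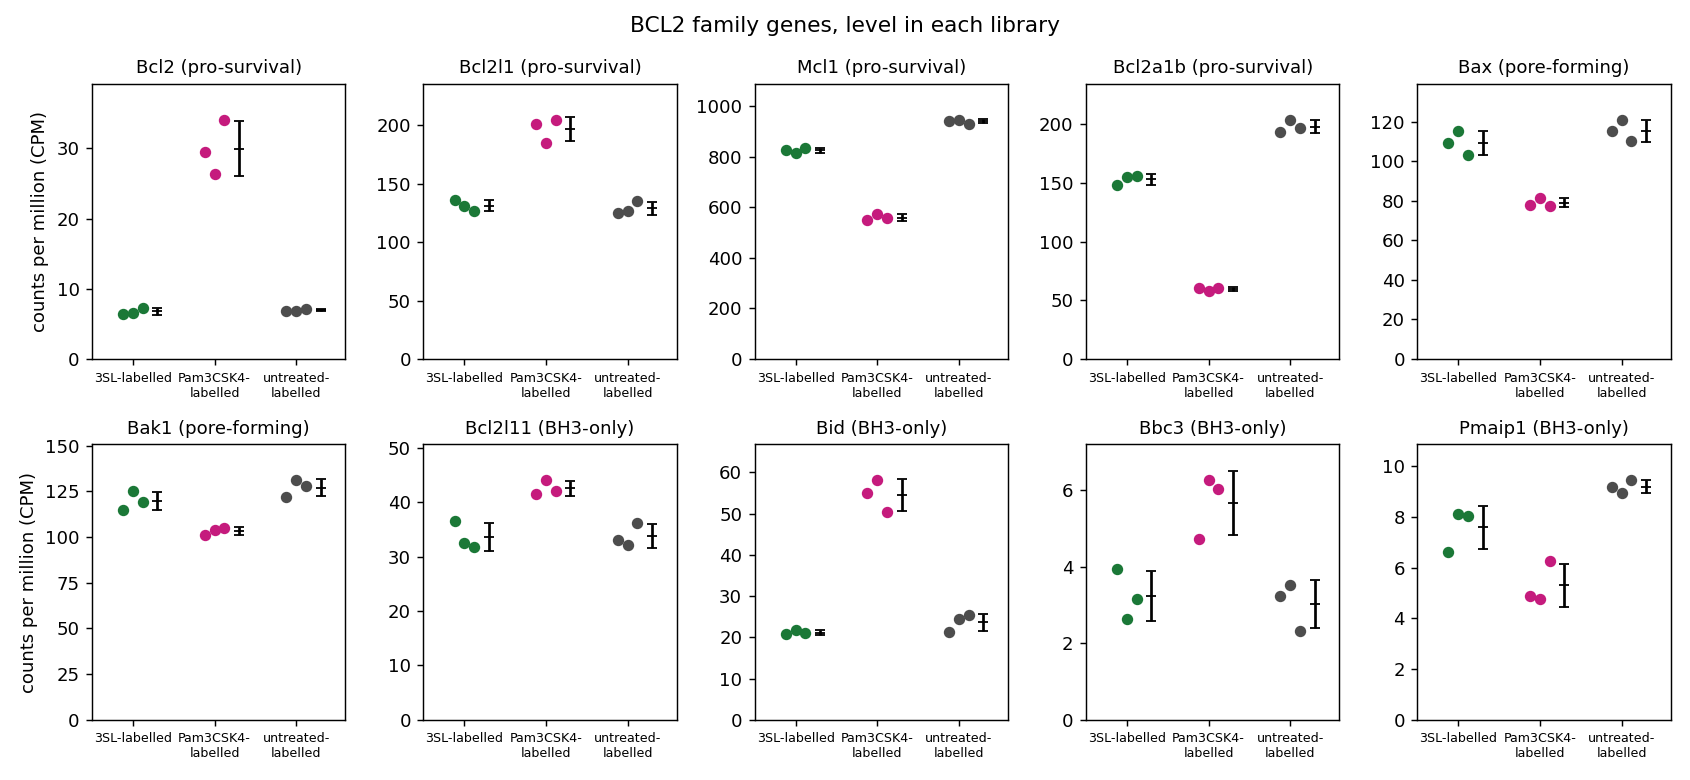
Level of each of the 10 genes in CPM (y axis, from 0, own scale per panel) in every library (points) of the 3 groups, with the mean and SD of the 3 libraries beside them. Bcl2, Bcl2l1, Bcl2l11, Bid and Bbc3 stand highest in the Pam3CSK4-labelled libraries and Mcl1, Bcl2a1b, Bax and Pmaip1 stand lowest there, as does Bak1 on this TMM scale but not with scaling by library size only.

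The pro-survival genes split. Bcl2, the founding member of the family (chr1:106538178-106714274 on GRCm38, minus strand), had 6.47, 6.56 and 7.32 CPM in the 3SL-labelled libraries, 29.5, 26.3 and 34.1 CPM in the Pam3CSK4-labelled libraries and 6.9, 6.81 and 7.1 CPM in the untreated-labelled libraries. Those labelled Pam3CSK4 stood far above both other groups, which overlapped each other. Bcl2 rose 4.32-fold in the Pam3CSK4-labelled over the untreated-labelled libraries, a log2 change of 2.11 (SE 0.0992, adjusted p = 5.78e-17, edgeR's quasi-likelihood test, Benjamini-Hochberg adjustment over all tested genes, as in every call here). It shares 558 exonic bases (6.09% of its exons) with the antisense gene D630008O14Rik, whose reads cannot be told apart without strand information.

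Bcl2l1, which encodes Bcl-xL and lies at chr2:152780668-152831728 on the minus strand, had 136, 131 and 127 CPM in the 3SL-labelled, 201, 185 and 205 CPM in the Pam3CSK4-labelled and 125, 127 and 135 CPM in the untreated-labelled libraries. It was again high in the Pam3CSK4-labelled libraries only, with no overlap. Its rise there over the untreated-labelled libraries was 1.53-fold, a log2 change of 0.61 (SE 0.0431, adjusted p = 4.75e-13, edgeR's quasi-likelihood test).

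Mcl1, whose protein is short-lived and holds Bak1 and BH3-only proteins, lies at chr3:95658788-95663176 on the plus strand and went the other way. It had 827, 816 and 834 CPM in the 3SL-labelled, 548, 573 and 557 CPM in the Pam3CSK4-labelled and 942, 947 and 931 CPM in the untreated-labelled libraries. The 3 groups were fully separate, with the 3SL-labelled libraries between the other groups. Mcl1 was 1.68-fold lower in the Pam3CSK4-labelled than in the untreated-labelled libraries, a log2 change of -0.75 (SE 0.0291, adjusted p = 7.42e-19, edgeR's quasi-likelihood test).

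Bcl2a1b, a mouse gene copy for the A1 protein, lies at chr9:89199209-89207827 on the plus strand and had the largest fall of the 10. Its levels were 148, 155 and 156 CPM in the 3SL-labelled, 60.7, 58 and 60.8 CPM in the Pam3CSK4-labelled and 193, 204 and 197 CPM in the untreated-labelled libraries. As for Mcl1, the groups were fully separate and the 3SL-labelled libraries stood between the others. The fall in the Pam3CSK4-labelled against the untreated-labelled libraries was 3.32-fold, a log2 change of -1.73 (SE 0.0424, adjusted p = 1.46e-23, edgeR's quasi-likelihood test).

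The value for Bcl2a1b depends on how reads were shared among its copies. The coding sequences of Bcl2a1a, Bcl2a1b and Bcl2a1d are each 519 bases long and differ from one another at 6 to 11 bases, an identity of 97.9% to 98.8%. Of all stretches of 50 bases in the Bcl2a1b transcript, 57.6% also occur in another copy, against 67.7% for Bcl2a1a and 79.5% for Bcl2a1d. Bcl2a1b also shares 401 exonic bases (49.1%) with the gene model Gm29094 on the same strand, which itself held between 5 and 42 counts per library. What lies just upstream of the copies is nearly the same too, and the stretches are shown as a description of their letters. Their part in the changes of these genes was not tested. The stretches were read from the RefSeq promoter windows on GRCm38.p6 and end before the first annotated transcribed base. They are written 5′ to 3′ on the gene's strand. Capitals mark the match to TGANTCA, a loose form of the AP-1 motif in which N is any base, here A. Whether AP-1 binds there was not tested.
Bcl2a1a, chr9:88956670-88956899, plus strand: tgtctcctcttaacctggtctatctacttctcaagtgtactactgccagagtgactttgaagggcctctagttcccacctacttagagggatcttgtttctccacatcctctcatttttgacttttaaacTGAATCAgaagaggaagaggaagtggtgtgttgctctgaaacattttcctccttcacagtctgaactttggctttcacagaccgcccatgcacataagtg
Bcl2a1b, chr9:89199023-89199208, plus strand: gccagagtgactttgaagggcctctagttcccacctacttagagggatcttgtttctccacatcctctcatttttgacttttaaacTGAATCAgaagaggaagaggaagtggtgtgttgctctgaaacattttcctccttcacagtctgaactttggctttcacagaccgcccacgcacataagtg
Bcl2a1d, chr9:88731915-88732100, minus strand: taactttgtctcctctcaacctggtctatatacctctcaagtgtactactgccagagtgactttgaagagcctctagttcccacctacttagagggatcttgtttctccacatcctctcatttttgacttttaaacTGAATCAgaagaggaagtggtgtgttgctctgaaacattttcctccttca
Over the aligned bases Bcl2a1a and Bcl2a1b were identical at 185 of 186, Bcl2a1a and Bcl2a1d at 176 of 180, and Bcl2a1b and Bcl2a1d at 135 of 136. Gaps are left out of these counts, and the Bcl2a1d stretch lacks a few bases shortly after the capitals that the other stretches hold. The capitals mark the same 7 letters in each copy.

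The other copies fell much further than Bcl2a1b. Bcl2a1d had 105, 122 and 110 CPM in the 3SL-labelled, 7.44, 5.68 and 5.2 CPM in the Pam3CSK4-labelled and 144, 143 and 141 CPM in the untreated-labelled libraries, a log2 change of -4.56 in the Pam3CSK4-labelled against the untreated-labelled libraries (SE 0.0788, adjusted p = 4.23e-27, edgeR's quasi-likelihood test). Bcl2a1a had 36.1, 42.5 and 49.3 CPM in the 3SL-labelled, 0.48, 1.78 and 0.611 CPM in the Pam3CSK4-labelled and 52.1, 51.4 and 45.6 CPM in the untreated-labelled libraries, with a log2 change of -5.58 in the same comparison (SE 0.174, adjusted p = 4.52e-21). Its level in the Pam3CSK4-labelled libraries rests on 6, 31 and 8 counts. Bcl2a1b therefore held 51.2%, 48.4% and 49.5% of the counts of the 3 copies in the 3SL-labelled libraries, 88.5%, 88.6% and 91.3% in the Pam3CSK4-labelled libraries and 49.6%, 51.2% and 51.2% in the untreated-labelled libraries. The exact binomial 95% bounds, which cover counting error only, lay between 46.7% and 53.4% over the 3SL-labelled, between 86.1% and 93.1% over the Pam3CSK4-labelled and between 48.3% and 52.9% over the untreated-labelled libraries. With the copies summed to 1 row, A1 fell 5.85-fold in the Pam3CSK4-labelled against the untreated-labelled libraries, a log2 change of -2.55 (SE 0.0423, adjusted p = 1.57e-27, edgeR's quasi-likelihood test). Whether these shares follow the transcripts or the assignment of shared reads was not tested.

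**Figure D2:**
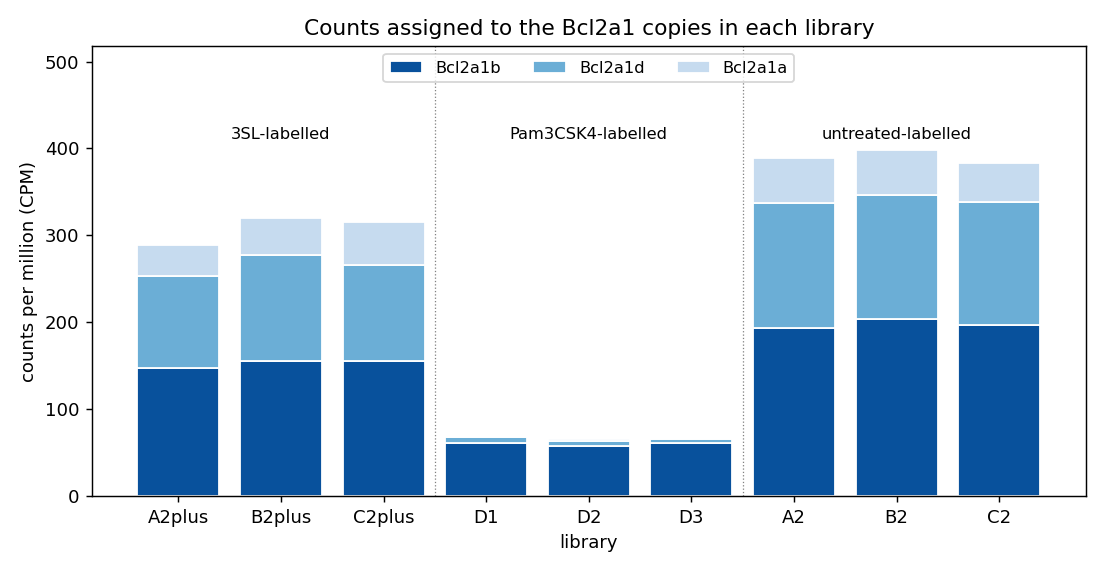
Counts assigned to Bcl2a1b, Bcl2a1d and Bcl2a1a, stacked, in CPM (y axis, from 0) for each of the 9 libraries, grouped by label. The stacks reach 289 to 319 CPM in the 3SL-labelled, 65.4 to 68.6 CPM in the Pam3CSK4-labelled and 384 to 398 CPM in the untreated-labelled libraries, and Bcl2a1b makes up nearly all of the stack in the Pam3CSK4-labelled libraries.

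Both pore-forming genes were lower in the Pam3CSK4-labelled libraries on the TMM scale, Bak1 with a direction that did not hold with scaling by library size only. Bax, at chr7:45461697-45466898 on the minus strand, had 109, 115 and 103 CPM in the 3SL-labelled, 78, 81.5 and 77.3 CPM in the Pam3CSK4-labelled and 115, 121 and 110 CPM in the untreated-labelled libraries. Those labelled Pam3CSK4 lay below all others, and the other groups overlapped. Bax fell 1.47-fold in the Pam3CSK4-labelled against the untreated-labelled libraries, a log2 change of -0.56 (SE 0.0469, adjusted p = 2.34e-11, edgeR's quasi-likelihood test). Bak1, at chr17:27019810-27029009 on the minus strand, had 115, 125 and 119 CPM in the 3SL-labelled, 101, 104 and 105 CPM in the Pam3CSK4-labelled and 122, 131 and 128 CPM in the untreated-labelled libraries. It had the smallest change of the 10 in this comparison, 1.23-fold lower with a log2 change of -0.30 (SE 0.0424, adjusted p = 4.61e-07, edgeR's quasi-likelihood test), which became 0.02 (adjusted p = 0.748) when libraries were scaled by size only. Bax shares 192 exonic bases (12.2%) with Gm45808, a same-strand model listed at 0 counts in all 9 libraries, and Bak1 shares 437 (18.2%) with Ggnbp1 on the opposite strand, which held 6 to 24 counts per library.

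Of the 4 BH3-only genes, 3 rose and 1 fell in the Pam3CSK4-labelled against the untreated-labelled libraries. Bid, which caspase-8 cleaves to link death receptors to mitochondria, lies at chr6:120891930-120916853 on the minus strand. It had 20.7, 21.7 and 21.1 CPM in the 3SL-labelled, 55, 58.1 and 50.4 CPM in the Pam3CSK4-labelled and 21.4, 24.4 and 25.3 CPM in the untreated-labelled libraries. Its Pam3CSK4-labelled libraries stood above all others, 2.31-fold over the untreated-labelled ones, a log2 change of 1.21 (SE 0.0696, adjusted p = 6.24e-15, edgeR's quasi-likelihood test). Bid shares 628 exonic bases (17.7%) with Bcl2l13 on the opposite strand, a mitochondrial relative that itself rose by a log2 change of 0.30 in this comparison (adjusted p = 4.5e-05, edgeR's quasi-likelihood test).

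Bcl2l11, which encodes BIM and lies at chr2:128126038-128162547 on the plus strand, had 36.5, 32.4 and 31.7 CPM in the 3SL-labelled, 41.5, 44 and 42 CPM in the Pam3CSK4-labelled and 33, 32.1 and 36.2 CPM in the untreated-labelled libraries. Its rise in the Pam3CSK4-labelled over the untreated-labelled libraries was small, 1.28-fold with a log2 change of 0.35 (SE 0.0654, adjusted p = 2.49e-05, edgeR's quasi-likelihood test), and the groups did not overlap. Bbc3, which encodes PUMA, a p53 target, lies at chr7:16308393-16318205 on the plus strand and was a low gene with 22 to 142 counts per library. Bbc3 had 3.94, 2.64 and 3.15 CPM in the 3SL-labelled, 4.72, 6.26 and 6.04 CPM in the Pam3CSK4-labelled and 3.23, 3.53 and 2.33 CPM in the untreated-labelled libraries. Those labelled Pam3CSK4 were the highest, 1.78-fold over the untreated-labelled ones, a log2 change of 0.83 (SE 0.174, adjusted p = 0.000123, edgeR's quasi-likelihood test). Pmaip1, which encodes NOXA, a BH3-only protein that binds Mcl1 and A1, had 6.61, 8.13 and 8.03 CPM in the 3SL-labelled, 4.88, 4.76 and 6.27 CPM in the Pam3CSK4-labelled and 9.18, 8.92 and 9.44 CPM in the untreated-labelled libraries. Pmaip1 was the BH3-only gene that fell, 1.73-fold with a log2 change of -0.79 (SE 0.129, adjusted p = 4.31e-06, edgeR's quasi-likelihood test), and its 3 groups were separate.

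Scaling by library size only moved the median change of all tested genes to 0.34 in the Pam3CSK4-labelled over the untreated-labelled libraries, and to -0.29 in the 3SL-labelled over the Pam3CSK4-labelled libraries. By that scaling the log2 changes in the Pam3CSK4-labelled over the untreated-labelled libraries were 0.93 for Bcl2l1, 0.67 for Bcl2l11, -0.44 for Mcl1, -0.24 for Bax and -0.48 for Pmaip1. The median was not subtracted from these values, which were all still called and in the same direction. The share of all called genes that were higher in the Pam3CSK4-labelled libraries was 52% with TMM, 74.3% by library size only and 50.1% with DESeq2 size factors.

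Per length of exon, the order of the 10 levels was nearly the same in the 3 groups. Mcl1 stood highest, with 242 ± 2.65 CPM per kb in the 3SL-labelled, 164 ± 3.7 in the Pam3CSK4-labelled and 275 ± 2.39 in the untreated-labelled libraries (SD, n = 3 each). Bcl2a1b came next at 187 ± 5.34 CPM per kb in the 3SL-labelled, 73.2 ± 1.94 in the Pam3CSK4-labelled and 242 ± 6.81 in the untreated-labelled libraries. Its level depends on how reads were shared among the copies, and the copies together were not ranked. Outside the 10, Bcl2a1d stood at 130 CPM per kb in the 3SL-labelled, 7.08 in the Pam3CSK4-labelled and 165 in the untreated-labelled libraries. Bcl2a1a stood at 52.1, 1.17 and 60.7 CPM per kb in the same groups. Among the 10, Bax followed Bcl2a1b at 69.2 in the 3SL-labelled, 50.1 in the Pam3CSK4-labelled and 73.2 CPM per kb in the untreated-labelled libraries. Bak1 stood above Bcl2l1 in the 3SL-labelled libraries (49.7 and 28.6 CPM per kb) and in the untreated-labelled libraries (52.8 and 28.1). In the Pam3CSK4-labelled libraries Bcl2l1 at 43 ± 2.31 and Bak1 at 42.9 ± 0.865 CPM per kb did not differ beyond their spread. Bid and Bcl2l11 took the next places in each group. The levels of Pmaip1, Bbc3 and Bcl2 were the lowest in each group. Bcl2 stood at 0.741 ± 0.051 CPM per kb in the 3SL-labelled, 3.27 ± 0.428 in the Pam3CSK4-labelled and 0.758 ± 0.0162 in the untreated-labelled libraries. It was last of the 10 in the 3SL-labelled and in the untreated-labelled libraries. In the Pam3CSK4-labelled libraries it stood above Bbc3 at 2.67 ± 0.392 and Pmaip1 at 1.94 ± 0.307 CPM per kb. The ranges of Bcl2 and Bbc3 there, 2.87 to 3.72 and 2.22 to 2.95 CPM per kb, overlapped.

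**Figure D3:**
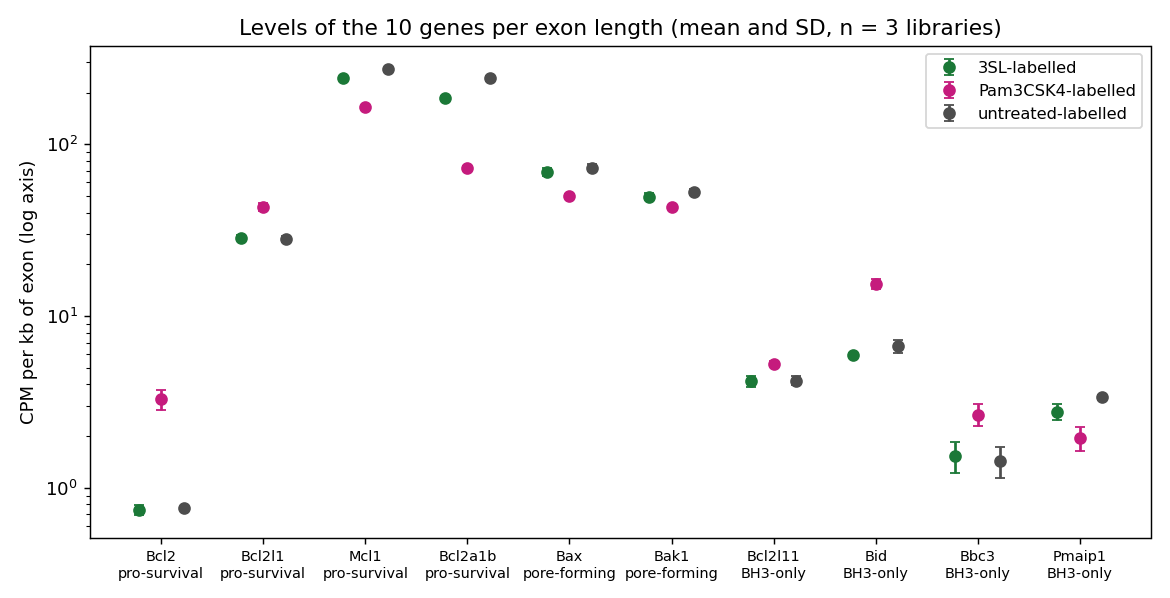
Level of each of the 10 genes per kb of exon (y axis, CPM per kb, log axis) in the 3 groups, as the mean with the SD of 3 libraries. Mcl1 and Bcl2a1b stand highest in each group, and Bcl2 stands at 0.741 CPM per kb in the 3SL-labelled, 3.27 in the Pam3CSK4-labelled and 0.758 in the untreated-labelled libraries.

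The second comparison asks about 3SL when Pam3CSK4 is also given. It shares the Pam3CSK4-labelled libraries with the first, so its values are given beside those above and not as separate support. All 10 genes were called in the 3SL-labelled against the Pam3CSK4-labelled libraries, 5 higher and 5 lower. Of all tested genes 71.5% were called, 34.7% higher and 36.8% lower. Scaling by library size only left 8 calls among the 10, where 8827 of 11469 tested genes were called. That scaling turned Bak1 to -0.06 (adjusted p = 0.202, edgeR's quasi-likelihood test). Calls with a change of at least 2-fold were found for 3 of the 10 (Bcl2, Bcl2a1b and Bid), against 23.0% of all tested genes. The median log2 change was -0.07 for the 10 genes and -0.02 for all tested genes. The groups did not overlap for any of the 10, as for 73.1% of all tested genes. The share of called genes that were higher was 48.5% with TMM, 27.6% by library size only and 50% with DESeq2 size factors.

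Among the pro-survival genes, Bcl2 was 4.38-fold lower in the 3SL-labelled libraries than in the Pam3CSK4-labelled ones (log2 change -2.13, SE 0.118, adjusted p = 2.9e-15, edgeR's quasi-likelihood test). Bcl2l1 was 1.5-fold lower (log2 change -0.59, adjusted p = 5.21e-12). Mcl1 was 1.48-fold higher (log2 change 0.56, adjusted p = 9.17e-16), and Bcl2a1b was 2.56-fold higher (log2 change 1.36, adjusted p = 2.26e-20), both by the same test. The summed Bcl2a1 copies were 4.61-fold higher (log2 change 2.20, adjusted p = 1.04e-25, edgeR's quasi-likelihood test).

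Bax was 1.38-fold higher in the 3SL-labelled libraries than in the Pam3CSK4-labelled ones (log2 change 0.47, adjusted p = 3.73e-09, edgeR's quasi-likelihood test), and by library size only its log2 change was 0.19 with the call kept. Bak1 was 1.16-fold higher on the TMM scale (log2 change 0.21, adjusted p = 0.000169), a direction that turned by library size only. Of the BH3-only genes, Bid was 2.57-fold lower (log2 change -1.36, adjusted p = 1.02e-14), Bcl2l11 1.28-fold lower (log2 change -0.35, adjusted p = 9.77e-05) and Bbc3 1.8-fold lower (log2 change -0.85, adjusted p = 0.000689), all by edgeR's quasi-likelihood test. Pmaip1 was 1.46-fold higher (log2 change 0.54, SE 0.152, adjusted p = 0.00242, edgeR's quasi-likelihood test), and by library size only it was at 0.27 with adjusted p = 0.109.

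**Figure D4:**
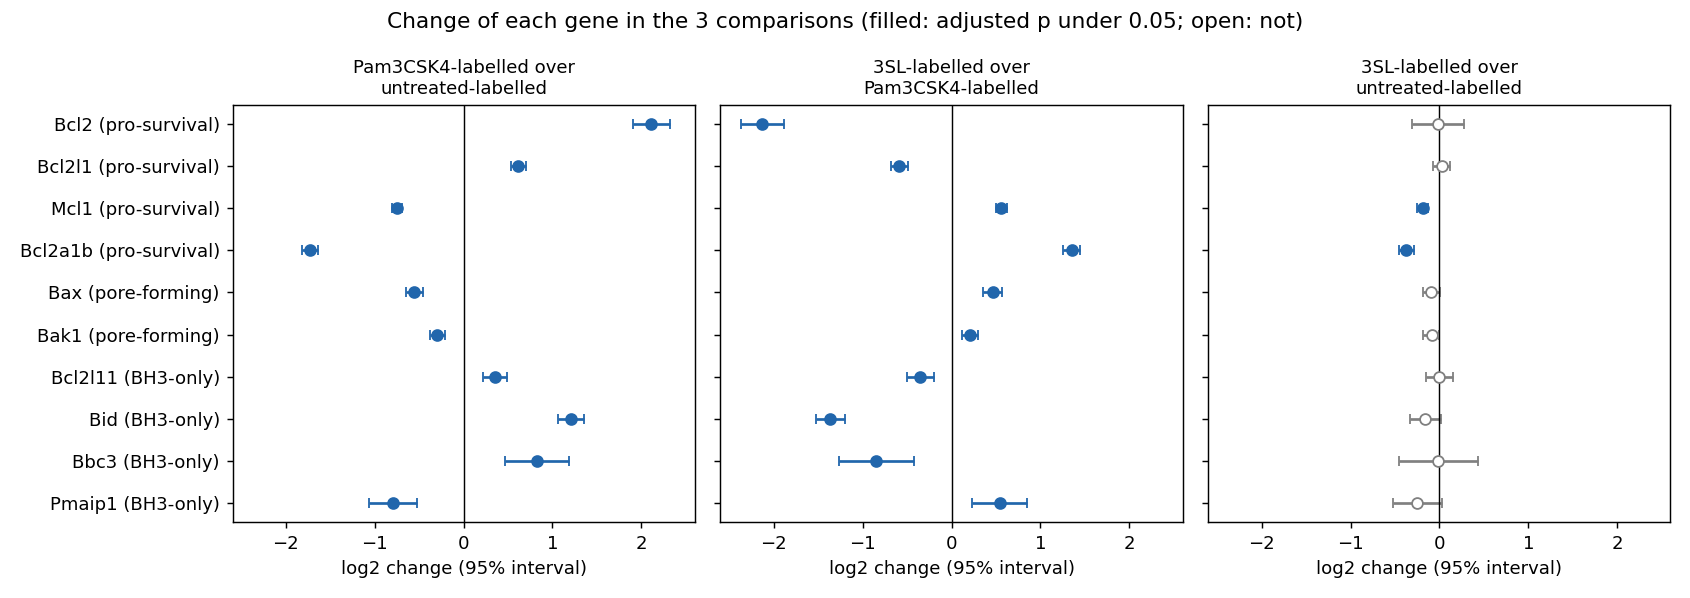
Log2 change of each of the 10 genes with its 95% interval (x axis) in the 3 comparisons, on the TMM scale, filled where the adjusted p was under 0.05. All 10 were called in the first and second panels, which share the Pam3CSK4-labelled libraries, with Bak1 (-0.30 and 0.21) turning to 0.02 and -0.06 by library size only, and Mcl1 and Bcl2a1b were called in the third.

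The third comparison sets the cells with both agents against untreated cells by their labels. Only Mcl1 and Bcl2a1b were called among the 10, both lower in the 3SL-labelled libraries, where 8.94% of all tested genes were called, 3.83% higher and 5.11% lower. The median log2 change of the 10 was -0.09, and that of all tested genes was 0. Mcl1 was 1.14-fold lower in the 3SL-labelled than in the untreated-labelled libraries (log2 change -0.19, SE 0.0291, adjusted p = 6.08e-05, edgeR's quasi-likelihood test), with an interval of -0.25 to -0.13. Bcl2a1b was 1.3-fold lower (interval -0.46 to -0.29, SE 0.04, adjusted p = 2.06e-07, edgeR's quasi-likelihood test). Both are pro-survival genes. None of the 10 changed 2-fold or more, and 0.174% of all tested genes were called with a change of that size. The summed Bcl2a1 copies were 1.27-fold lower, a log2 change of -0.34 (adjusted p = 3.14e-07, edgeR's quasi-likelihood test), and Bcl2a1d alone had -0.34 (adjusted p = 4.74e-05) and Bcl2a1a -0.22 (adjusted p = 0.169).

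The other 8 genes were not called, and their 95% intervals of the log2 change cover only the spread among these libraries on the TMM scale. For Bcl2 the interval ran from -0.31 to 0.28, for Bcl2l1 from -0.07 to 0.12, for Bax from -0.19 to 0.01 and for Bak1 from -0.18 to 0. Among the BH3-only genes it ran from -0.15 to 0.15 for Bcl2l11, from -0.33 to 0.02 for Bid, from -0.46 to 0.43 for Bbc3 and from -0.52 to 0.03 for Pmaip1. Pmaip1 did not overlap between the groups (6.61 to 8.13 CPM in the 3SL-labelled and 8.92 to 9.44 CPM in the untreated-labelled libraries) although it missed the threshold (log2 change -0.25, adjusted p = 0.297, edgeR's quasi-likelihood test). With Mcl1 and Bcl2a1b that made 3 of 10 genes without overlap, against 24.0% of all tested genes. The count of calls over all genes in this comparison was 1025 with all libraries, 626 without the untreated-labelled library B2 and 683 without the 3SL-labelled library A2plus, while Mcl1 and Bcl2a1b were called in each of these fits. Of all calls, 42.8% were higher with TMM, 66% by library size only and 38.2% with DESeq2 size factors.

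Of 3 motifs searched in the promoter windows, the GC box was the one found in more than 2 windows. RefSeq windows of 300 bases on GRCm38.p6 were read for 9 of the 10 genes, 14 windows in all since some genes have several starts, and were searched on both strands. The GC box GGGCGG occurred in 10 of the 14, against 35.7% of 32851 windows of all genes, with none in the windows of Bcl2l1 and Bak1. TGANTCA, the loose form of the AP-1 motif, occurred in 1 window, that of Bcl2a1b shown above, against 7.81% of all windows. A decamer for NF-kappaB occurred in 2 windows, of Bcl2l1 and Bbc3, against 8.46% of all windows. Windows of 1 gene can overlap, so they are not independent, and a match is a description of the letters in the window.

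The other genes of the family and of the pathway were counted in lists chosen with earlier results of these data known. The shares of all tested genes beside the counts are on the TMM scale. By library size only 6882 of 11469 tested genes rose and 2380 fell in the Pam3CSK4-labelled against the untreated-labelled libraries. In the second comparison 2434 were higher and 6393 lower by that scaling, and in the third 788 and 406. Of 15 further BCL2 family genes 9 were tested, and in the Pam3CSK4-labelled against the untreated-labelled libraries 3 rose and 6 fell, or 3 and 5 by library size only, with a median log2 change of -0.49 against 0.03 for all tested genes, of which 39.0% rose and 35.9% fell. Besides the Bcl2a1 copies, the smallest p was that of Bnip3, a mitochondrial protein of hypoxia and mitophagy, which averaged 192 ± 8.34 CPM in the 3SL-labelled, 22.5 ± 2.05 in the Pam3CSK4-labelled and 187 ± 6.88 in the untreated-labelled libraries (SD, n = 3 each). Between the 3SL-labelled and the Pam3CSK4-labelled libraries 6 were higher and 2 lower (5 and 3 by library size only), with a median log2 change of 0.43 against -0.02 for all tested genes, of which 34.7% were higher and 36.8% lower. Bnip3 was 8.49-fold higher there (log2 change 3.09, adjusted p = 3.55e-26, edgeR's quasi-likelihood test). Between the 3SL-labelled and the untreated-labelled libraries 1 of the 9, Bcl2a1d, was called lower and none higher, where 8.94% of all tested genes were called.

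Genes of the death receptor pathway mostly fell in the first comparison on the TMM scale. Of 14 listed genes 13 were tested, and in the Pam3CSK4-labelled against the untreated-labelled libraries 2 rose and 10 fell (3 and 6 by library size only), with a median log2 change of -0.55, where 39.0% of all tested genes rose and 35.9% fell. Cflar, which encodes c-FLIP, the inhibitor of caspase-8, averaged 703 ± 39.6 CPM in the 3SL-labelled, 89.8 ± 1.14 in the Pam3CSK4-labelled and 753 ± 6.44 in the untreated-labelled libraries. It fell 8.39-fold in the Pam3CSK4-labelled against the untreated-labelled libraries (adjusted p = 6.65e-30, edgeR's quasi-likelihood test). The death receptor gene Fas fell 18-fold in that comparison (adjusted p = 1.6e-26), to 5.13 ± 0.467 CPM, against 92.9 ± 3.37 CPM in the untreated-labelled libraries. The adaptor gene Traf2 fell 2.75-fold (adjusted p = 7.66e-16, edgeR's quasi-likelihood test). The genes that fell thus include both an inhibitor of death receptor signalling and a receptor that starts it. In the 3SL-labelled against the Pam3CSK4-labelled libraries 10 were higher and 2 lower (7 and 3 by library size only), with a median log2 change of 0.75, where 34.7% of all tested genes were higher and 36.8% lower. The TNF receptor gene Tnfrsf1a was 1.68-fold higher there (adjusted p = 5.98e-16, edgeR's quasi-likelihood test). None of the 13 was called in 3SL-labelled against untreated-labelled libraries, where 8.94% of all tested genes were called. The smallest adjusted p was that of Casp8 at 0.0622 by edgeR's quasi-likelihood test. By library size only 1 of the 13 was called higher, and with DESeq2 size factors 1 was called lower. The unadjusted p was under 0.05 for 5 of the 13, and DESeq2's Wald test called 0.

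Genes of the apoptosome and of the steps around it had no common direction on the TMM scale. Of 16 tested, 5 rose and 6 fell in the Pam3CSK4-labelled against the untreated-labelled libraries, where 39.0% of all tested genes rose and 35.9% fell. The 16 genes had a median log2 change of 0.02. By library size only 10 of the list rose and 2 fell, where 6882 of 11469 tested genes rose and 2380 fell. Casp2, an initiator caspase, rose 2.84-fold (adjusted p = 5.25e-16, edgeR's quasi-likelihood test), to 32.9 ± 2.16 CPM in the Pam3CSK4-labelled, against 11.6 ± 0.473 CPM in the untreated-labelled libraries. Vdac1, a channel of the outer mitochondrial membrane, fell 1.41-fold (adjusted p = 2.82e-12). In the 3SL-labelled against the Pam3CSK4-labelled libraries 4 were higher and 5 lower, where 34.7% of all tested genes were higher and 36.8% lower. The median log2 change of the list was -0.02. By library size only 3 were higher and 10 lower, where 2434 of 11469 tested genes were higher and 6393 lower. Relative to untreated-labelled libraries, 3SL-labelled libraries had Vdac2, a channel that binds Bak1, 1.08-fold lower (adjusted p = 0.0403, edgeR's quasi-likelihood test), and by library size only it was not called (adjusted p = 0.196).

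Of 9 listed genes of the caspase inhibitor family 8 were tested, and 1 rose and 4 fell in the Pam3CSK4-labelled against the untreated-labelled libraries (4 and 3 by library size only), with a median log2 change of -0.16, where 39.0% of all tested genes rose and 35.9% fell. Birc3, a ubiquitin ligase of TNF receptor signalling that NF-kappaB induces, averaged 318 ± 4.3 CPM in the 3SL-labelled, 22.3 ± 2 in the Pam3CSK4-labelled and 319 ± 10.7 in the untreated-labelled libraries. Its fall in the Pam3CSK4-labelled against the untreated-labelled libraries was 14.3-fold (adjusted p = 1.04e-29, edgeR's quasi-likelihood test). The member that rose was Birc5, which encodes survivin and is known from cell division, 1.72-fold (adjusted p = 7.12e-12), and Naip2, a sensor of bacterial secretion systems, fell 1.83-fold (adjusted p = 7.13e-16, both edgeR's quasi-likelihood test). In the second comparison 4 were higher and 1 lower in the 3SL-labelled libraries (3 and 4 by library size only), with a median log2 change of 0.19, where 34.7% of all tested genes were higher and 36.8% lower. None of the 8 was called in 3SL-labelled against untreated-labelled libraries by edgeR's quasi-likelihood test under any of the 3 scalings. On the TMM scale 8.94% of all tested genes were called there. The smallest adjusted p of the 8 on that scale was 0.275 for Naip2 by edgeR's quasi-likelihood test. An unadjusted p under 0.05 or a call by DESeq2's Wald test was found for 0 of the 8.

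Upstream regulators of the family made the last list, 22 genes of which 21 were tested. In the Pam3CSK4-labelled against the untreated-labelled libraries 8 rose and 12 fell (10 and 10 by library size only), with a median log2 change of -0.25, where 39.0% of all tested genes rose and 35.9% fell. Pim1, a kinase that inactivates the BH3-only protein Bad, averaged 237 ± 6 CPM in the 3SL-labelled, 26.3 ± 2.12 in the Pam3CSK4-labelled and 274 ± 9.42 in the untreated-labelled libraries, 10.4-fold lower in the Pam3CSK4-labelled than in the untreated-labelled libraries (adjusted p = 1.74e-28, edgeR's quasi-likelihood test). Trib1, a pseudokinase, fell 4.94-fold (adjusted p = 2.87e-23) and E2f1, a cell cycle transcription factor, rose 2.84-fold (adjusted p = 5.12e-19, both edgeR's quasi-likelihood test). Between the 3SL-labelled and the Pam3CSK4-labelled libraries 12 were higher and 8 lower (8 and 9 by library size only), with a median log2 change of 0.31, where 34.7% of all tested genes were higher and 36.8% lower, and Pim2, a relative of Pim1, was 8.57-fold higher (adjusted p = 7.03e-18, edgeR's quasi-likelihood test). In 3SL-labelled against untreated-labelled libraries Pim1 was 1.16-fold lower (adjusted p = 0.000816) and Atf4, a transcription factor of the stress response, 1.1-fold lower (adjusted p = 0.0332, both edgeR's quasi-likelihood test). These were the calls among the 21 on the TMM scale, where 8.94% of all tested genes were called. By library size only 2 of the 21 were called higher and 1 lower.

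**Figure D5:**
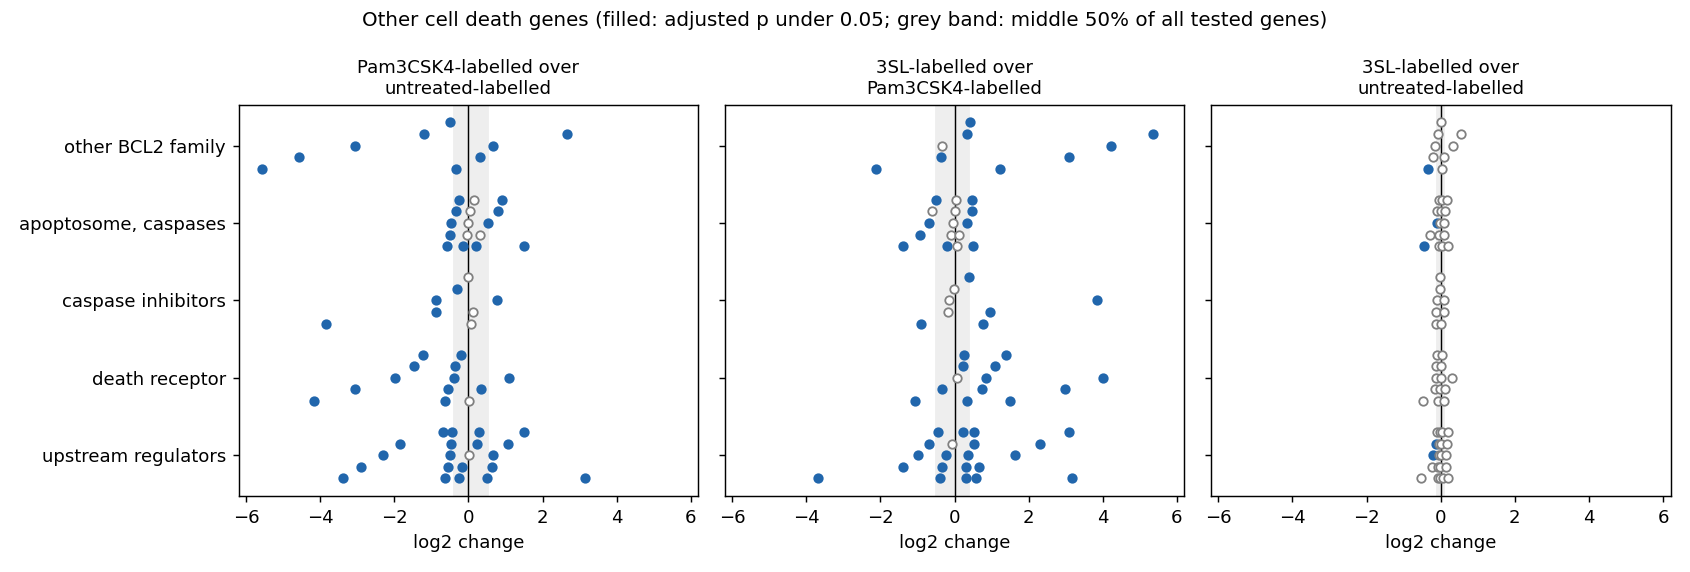
Log2 change of each tested gene of the 5 lists (x axis, TMM scale) in the 3 comparisons, filled where the adjusted p was under 0.05, with a grey band over the middle 50% of all tested genes. In the first panel 10 of 13 death receptor genes are called lower, 6 of 13 by library size only. In the third panel few genes are called, where 8.94% of all tested genes were called.

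Markers of cell types moved between the same groups. The 8 macrophage markers summed to 23200 to 23800 CPM in the 3SL-labelled, 16100 to 16600 CPM in the Pam3CSK4-labelled and 24000 to 24500 CPM in the untreated-labelled libraries, and none was at 0. Of these, Cd14 and Adgre1 were the most changed, 10.6-fold and 3.32-fold lower in the Pam3CSK4-labelled than in the untreated-labelled libraries (adjusted p = 1.48e-32 and 2.78e-28, edgeR's quasi-likelihood test). Not all moved this way, since Mertk rose 1.99-fold and Cd68 rose 1.38-fold between the same libraries (adjusted p = 1.95e-15 and 1.58e-14, edgeR's quasi-likelihood test). The 13 markers of neutrophils and their progenitors summed to 569 to 625 CPM in the 3SL-labelled, 459 to 586 in the Pam3CSK4-labelled and 699 to 726 in the untreated-labelled libraries. They did not move together, since Mpo rose 2.12-fold and S100a8 fell 1.78-fold in the Pam3CSK4-labelled against the untreated-labelled libraries (adjusted p = 5.73e-14 and 3.53e-13, edgeR's quasi-likelihood test). The 7 dendritic cell markers summed to 88.5 to 91.9 CPM in the 3SL-labelled, 38.1 to 38.9 in the Pam3CSK4-labelled and 90.1 to 93 in the untreated-labelled libraries, most of it Itgax. The 9 lymphocyte markers summed to 9.35 to 11.7 CPM in the 3SL-labelled, 11.4 to 13.7 in the Pam3CSK4-labelled (with Cd3e at 0) and 10.4 to 12.2 in the untreated-labelled libraries, most of it Cd4, and the other 8 averaged under 1 CPM in each group. The 5 stromal markers summed to 7.31 to 9.35 CPM in the 3SL-labelled, 1.66 to 2.72 in the Pam3CSK4-labelled and 11.8 to 13 in the untreated-labelled libraries. Most of this sum was Pdgfrb, at a mean of 6.9 CPM in the 3SL-labelled, 1.12 CPM in the Pam3CSK4-labelled and 10.3 CPM in the untreated-labelled libraries, and the other 4 averaged under 1 CPM in each group. The part of these cells in the results for the BCL2 family genes was not tested.

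Over the 9 libraries, the genes with the profile closest to each of the 10 were found by the Euclidean distance between log2 CPM profiles, each centred on its own mean. For Bcl2 they were Ctla2b (0.334) and Fblim1 (0.338), for Mcl1 Vamp8 (0.11) and Ctsz (0.125), and for Bcl2a1b Daxx (0.168) and Stim2 (0.218). Bcl2l1 was closest to Kat14 (0.0969) and Pelp1 (0.112), Bax to Ms4a7 (0.076) and Myl12a (0.108), and Bak1 to Gabarap (0.0851) and Ostf1 (0.0862). Among the BH3-only genes, Bid was closest to Cd84 (0.218) and Sptssa (0.253), Bcl2l11 to Laptm5 (0.128) and Togaram1 (0.135), Bbc3 to Ak1 (0.335) and Utrn (0.391), and Pmaip1 to 9130401M01Rik (0.288) and Dlgap4 (0.29). All profiles share the same libraries and the same wide gap between the Pam3CSK4-labelled and the other libraries, so the distances are a description.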

How the data were processed

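RNA-seq counts per gene were used as deposited by the authors in 1 table. The submitters' processing notes name HISAT2 2.1.0, featureCounts and Subread, and the build hg38, although all 22001 identifiers are mouse Ensembl identifiers. The sources used here give no annotation release or strand setting. Reads of overlapping or antisense genes cannot be told apart. The table's 15 further columns of other samples were not used.

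The tests ran in edgeR 4.0.16 (R 4.3.3): filterByExpr kept 11469 genes (52.1%), TMM factors scaled the libraries, and 1 quasi-likelihood model over all 9 libraries gave the 3 comparisons, with Benjamini-Hochberg adjustment over all tested genes and a threshold of 0.05. The code was tested on simulated data. Coordinates and exon lengths come from GENCODE M21 on GRCm38. All 10 genes are named, with the 3 of smallest p per list and comparison (some are not reported here) and the closest profiles. Alternatives were DESeq2 1.42.0, other scalings and filters, thinning, summed copies and leaving out each library. The genes and lists were chosen with earlier results of these data known.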

Additional observations from a re-analysis of the deposited data

How the results depend on the processing

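With each of the 9 libraries left out in turn, the count of the 10 genes called was 10 to 10 for Pam3CSK4-labelled against untreated-labelled libraries, 10 to 10 for 3SL-labelled against Pam3CSK4-labelled libraries and 2 to 2 for 3SL-labelled against untreated-labelled libraries. By library size only the counts were 9, 8 and 2, where 9262, 8827 and 1194 of 11469 tested genes were called. Of 490 values of single genes under the alternatives, 472 kept their direction and their side of the threshold, 1 lost its call and 17 turned. Library size only turned Bak1 to 0.02 in the first comparison and to -0.06 in the second, and left Pmaip1 at 0.27 without a call in the second. That scaling shifts all genes of a library alike. The other turned values belong to genes near 0 and not called in the third comparison. Bcl2 was 0.02 by library size only and -0.08 to 0.01 with a library left out. Bcl2l1 was -0.02 with libraries thinned to the smallest total. Bcl2l11 was 0.04 by library size only, 0 with only the groups compared in the fit, and -0.05 to 0.04 with a library left out. Bbc3 was 0.02 by library size only, 0.01 with DESeq2's Wald test, 0.21 after thinning and -0.15 to 0.14 with a library left out.

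Whether the letters A, B and C shared by untreated-labelled and 3SL-labelled libraries pair them is not stated. Deviations of same-letter libraries from their group means correlated at -0.017, 0.042 and 0.008 over 11469 genes. With 3 libraries per group and counting error in each deviation, these correlations cannot decide it. With the letter as a replicate block 2 of the 10 genes were called in the third comparison, as without it, and Bbc3 was at 0.03. The summed Bcl2a1 copies ranged with a library left out over -2.57 to -2.53, 2.18 to 2.25 and -0.37 to -0.3. Their values by library size only, -2.24, 1.93 and -0.31, and with DESeq2 size factors, -2.58, 2.22 and -0.35, were added after seeing the data. Bbc3, Bcl2 and Pmaip1 had the fewest counts, with as few as 22, 46 and 47 in a library.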
